A study of Mus musculus with 12 samples.

Results

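The genes described here are 8 mouse CXC chemokines, Cxcl1, Cxcl2, Cxcl3, Cxcl9, Cxcl10, Cxcl13, Cxcl16 and Pf4, measured in myeloid cells sorted from the inflamed or control hind paw. They were chosen from 1 gene family with earlier results of these data known, and they are not the whole family. All 8 of the 8 were present among the 55401 gene rows of both deposited tables, and all 8 passed the filter on low values in the carrageenan comparisons. The study asked how loss of FABP5, a fatty acid binding protein, in myeloid cells acts in inflammatory pain. The cells were CD45+, CD11b+ and Ly6G-, a gate that keeps monocytes, macrophages and some dendritic cells and removes neutrophils. They were taken from adult mice 4 h after an injection into the paw of saline or of 1% carrageenan, a seaweed polysaccharide that causes acute inflammation. All mice carried the floxed Fabp5 allele (FABP5Flox). The Flox groups had no Cre, and the LysMCre groups (genotype label LysMCre-cKO) also carried LysM-Cre, a Cre recombinase expressed from the Lyz2 gene in monocytes, macrophages and neutrophils. A group with Cre and without the floxed allele was not analysed here, so effects of the recombinase and of the deletion cannot be told apart. Each of the 4 groups held 3 libraries, and each library was a pool of 3 to 4 mice by its title, 10 Flox and 12 LysMCre mice for each treatment. Pools are named by the mouse numbers in their titles (Flox 1-3, 4-7 and 8-10, LysMCre 1-4, 5-8 and 9-12).

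Chemokines are small secreted proteins that direct the migration of leukocytes through receptors coupled to G proteins, and CXC chemokines share a pair of cysteines separated by a single residue. Cxcl1, Cxcl2 and Cxcl3 bind Cxcr2 and recruit neutrophils, and macrophages make them within hours of stimulation through NF-kB. Cxcl9 and Cxcl10 are induced by interferons and bind Cxcr3 on T and NK cells. Cxcl13 binds Cxcr5 and attracts B cells, Cxcl16 is a membrane-anchored ligand of Cxcr6 that can be shed, and Pf4 (Cxcl4, platelet factor 4) is known from platelet granules and is also transcribed by resident macrophages.

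The members lie at 3 places on chromosome 5 and at a single locus on chromosome 11 (GRCm38). Pf4 (chr5:90772435-90773383), Cxcl3 (chr5:90786103-90789600), Cxcl1 (chr5:90891241-90893115) and Cxcl2 (chr5:90903871-90905938) stand on the plus strand within 134 kb, with 12.7 kb between Pf4 and Cxcl3. Cxcl9 (chr5:92321347-92328079) and Cxcl10 (chr5:92346638-92348889) are on the minus strand, 18.6 kb apart. Cxcl13 is at chr5:95956951-95961068 on the plus strand and Cxcl16 at chr11:70453983-70459984 on the minus strand. Pf4 and Cxcl3 are thus neighbours, and averaged over genotypes Cxcl3 rose and Pf4 fell after carrageenan.

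The promoters of the neutrophil-attracting ligands and of Cxcl10 are shown because these genes include Cxcl10 and Cxcl3, which rose in both genotypes, and because their known activators, NF-kB and the interferon-activated factors, bind short defined motifs. RefSeq sequences of GRCm38.p6, from 250 bases before to 50 bases after each gene's RefSeq start, were on hand for 7 of the 8 members. Distances below are counted from that RefSeq start. For Cxcl1, Cxcl2 and Cxcl3 it is not the same base as the start in the gene coordinates above. Capitals mark matches to the NF-kB consensus, and in Cxcl10 also, as the first run of capitals, the interferon-stimulated response element, taken as 2 copies of GAAA separated by 2 bases. Cxcl1 to Cxcl3 are shown from 110 to 31 bases before the start and Cxcl10 from 220 to 91 bases before it, each 5′ to 3′ on the gene's own strand.
Cxcl1 (chr5:90891135-90891214, plus strand): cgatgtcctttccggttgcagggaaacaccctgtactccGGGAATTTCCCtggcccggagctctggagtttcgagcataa
Cxcl2 (chr5:90903789-90903868, plus strand): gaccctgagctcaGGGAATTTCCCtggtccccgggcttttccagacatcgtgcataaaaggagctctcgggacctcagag
Cxcl3 (chr5:90785991-90786070, plus strand): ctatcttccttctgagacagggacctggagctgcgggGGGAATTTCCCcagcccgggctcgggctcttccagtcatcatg
Cxcl10 (chr5:92348980-92349109, minus strand): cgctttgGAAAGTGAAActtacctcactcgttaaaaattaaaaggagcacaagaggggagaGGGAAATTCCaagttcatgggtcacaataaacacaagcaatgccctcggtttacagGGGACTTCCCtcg

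Cxcl1, Cxcl2 and Cxcl3 carried the same run, GGGAATTTCCC, starting 71, 97 and 73 bases before the start. In each it holds a pair of overlapping matches, on opposite strands and shifted by 1 base. Over 30 bases around it, Cxcl1 and Cxcl2 shared 23 bases (76.7%), Cxcl1 and Cxcl3 shared 19 (63.3%) and Cxcl2 and Cxcl3 shared 17 (56.7%). Cxcl10 had NF-kB matches starting 159 and 103 bases before the start and the response element 213 bases before it. Both strands were searched in all 27025 promoter windows. The NF-kB consensus was in 4.35% of them and in 4 of the 7 member windows, and the response element was in 3.49% of them and in Cxcl10 alone among the members. TATAAA, in 14.2%, matched in Cxcl3, Cxcl9 and Cxcl13. These matches are descriptions of the letters and not binding sites measured in these cells.

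Reads on genes ranged from 111925 (Flox saline 1-3) to 2987015 (LysMCre saline 5-8), and the LysMCre libraries were 4.99 times as deep as the Flox libraries (ratio of geometric means). Values below are normalized counts. Those of the carrageenan comparisons are on a scale common to all 12 libraries, where 1 read was worth 5.55 in Flox saline 1-3 and 0.255 in LysMCre saline 5-8, and those of the genotype comparisons are as deposited, scaled within each treatment. Each library is a pool of mice, so p-values measure the spread between pools. Fabp5 itself, as deposited, was 5.46, 36.5 and 23.9 in Flox and 6.36, 4.29 and 11.8 in LysMCre after saline, groups that overlap. After carrageenan it was 43.1, 94.9 and 32.8 in Flox and 6.01, 11.1 and 22.3 in LysMCre, groups that do not overlap. The deleted part of the gene is not given in the sources used here, and a 3′ tag may lie outside it.

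The marker RNA of cell types in the sort differed between treatments. The summed level of 12 resident macrophage markers (Cd163, Lyve1 and others, none at 0 reads over the 12 libraries) was 8512 to 11103 in Flox saline and 2601 to 3118 in Flox carrageenan, and 12 of 12 were lower after carrageenan averaged over genotypes. For 10 inflammatory monocyte markers such as Ly6c2 and Ccr2 the sum was 1032 to 1938 and then 6365 to 8351, and 8 of 10 were higher. In LysMCre the sums were 10412 to 12890 and 3229 to 5479 for resident macrophages, and 828 to 1481 and 2555 to 9298 for monocytes. Library LysMCre carrageenan 9-12 stood apart from the other LysMCre carrageenan libraries, with the lowest resident macrophage sum of its group (3229 against 4924 and 5479) and a sum of 10 neutrophil markers of 699, against 141 and 201 in the others. Without it, the LysMCre carrageenan changes that passed for Cxcl10 and Cxcl3 were 3.95 (limma adjusted p = 0.0803) and 2.07 (adjusted p = 0.115) on the log2 scale, and the change of Cxcl1, which did not pass either way, was 0.945 in place of 0.53. In bulk samples, fewer cells of a type and less RNA per cell cannot be told apart.

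Carrageenan raised 5 of the 8 chemokines and lowered 1, averaged over the genotypes. Cxcl10, Cxcl9, Cxcl3, Cxcl16 and Cxcl2 were higher, Pf4 was lower, and Cxcl1 and Cxcl13 did not pass the test. Among all 10240 genes tested 6.77% were called higher and 4.83% lower (limma, Benjamini-Hochberg adjusted p under 0.05). The median log2 change was 0.73 over the 8 members and 0.02 over all genes. In Flox alone 3 members were called higher, against 4.42% of all genes, and 1 lower, against 2.74%. In LysMCre alone 3 were called higher, against 2.1%, and 0 lower, against 0.547%, with 6 of the 8 members and 1123 of the 10240 genes at an unadjusted p under 0.05. Without the filter on low values the calls fell to 2 members in Flox, beside 1.9% of genes, and to 1 in LysMCre, beside 0.63%. Treatments did not overlap for 4 higher members (13% of genes) and 1 lower member (9.97%) in Flox, and for 5 higher members (12.6%) in LysMCre.

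**Figure D1:**
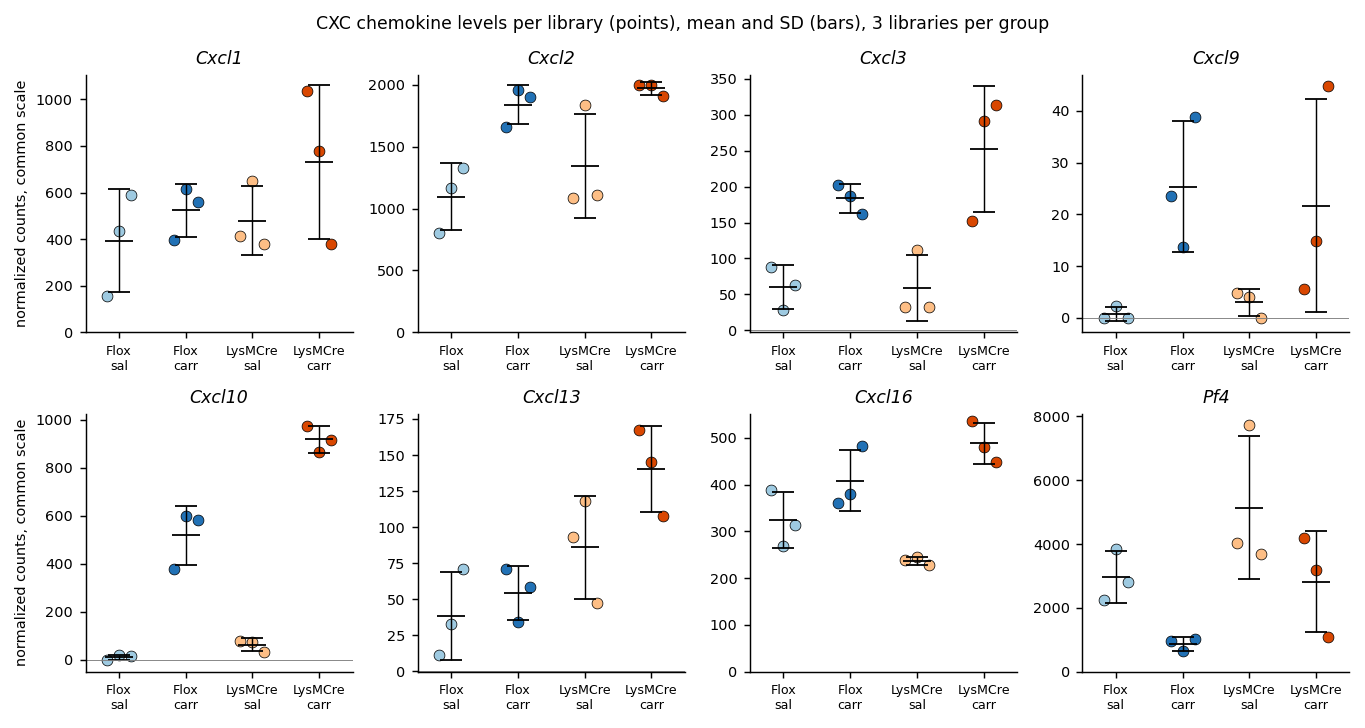
Normalized counts of the 8 chemokines in the 12 libraries on the common scale. Points are pools of mice and bars mark group means. Cxcl10 stands at 0 to 80.3 after saline and 377 to 975 after carrageenan, while Pf4 in Flox is at 2236 or more after saline and 1025 or less after carrageenan.

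Among Cxcl1, Cxcl2 and Cxcl3, Cxcl2 had the most reads. It stood at 799, 1163 and 1327 in Flox saline and at 1659, 1955 and 1897 in Flox carrageenan. In LysMCre it stood at 1086, 1832 and 1111 after saline and at 1999, 2000 and 1912 after carrageenan. In neither genotype did the saline and carrageenan groups overlap. The change was 0.68 ± 0.19 on the log2 scale averaged over genotypes (SE, n = 6 libraries against 6; limma adjusted p = 0.0315), a 1.61-fold rise. Within a single genotype it did not pass, at 0.77 ± 0.27 in Flox (adjusted p = 0.103) and 0.60 ± 0.27 in LysMCre (adjusted p = 0.433). The averaged call held in 4 of the 12 fits that left out a library, those without Flox saline 1-3, Flox saline 8-10, LysMCre saline 5-8 or LysMCre carrageenan 9-12, with log2 changes of 0.58 to 0.81 over the 12.

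Cxcl3, which had fewer reads than Cxcl1 and Cxcl2, rose in both genotypes. Its values in Flox were 88.8, 28.1 and 63.6 after saline (60.2 ± 30.5, SD, n = 3) and 202, 187 and 162 after carrageenan (184 ± 20.2, SD, n = 3). In LysMCre they were 32.7, 111 and 32.5 after saline (58.8 ± 45.5) and 152, 291 and 313 after carrageenan (252 ± 87.6). Every carrageenan library was above every saline library of either genotype. The rise was 3.32-fold in Flox (log2 1.73 ± 0.48, adjusted p = 0.0432) and 4.80-fold in LysMCre (2.26 ± 0.48, adjusted p = 0.0222). The Flox call was lost in 6 of the 12 fits without a library (Flox saline 4-7, any Flox carrageenan library, LysMCre saline 1-4 or LysMCre carrageenan 5-8), with log2 changes of 1.27 to 2.08. The LysMCre call was lost in 4 (saline 1-4, saline 9-12, carrageenan 5-8 or carrageenan 9-12), with 1.97 to 2.84, and the call of the averaged change of 2.00 ± 0.34 (adjusted p = 0.00139) held in all 12. For every 100 Cxcl2 reads there were 2.42 to 11.1 Cxcl3 reads in Flox saline and 8.53 to 12.2 in Flox carrageenan, and 2.93 to 6.08 and 7.59 to 16.4 in LysMCre.

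Cxcl1, the neighbour of Cxcl2 on the chromosome, did not pass. Its Flox values were 155, 434 and 590 after saline and 398, 615 and 558 after carrageenan. Those of LysMCre were 412, 649 and 377 after saline and 1035, 777 and 380 after carrageenan. The groups overlapped in both genotypes, since the lowest carrageenan library of each lies inside the saline range. The averaged log2 change was 0.56 ± 0.32 (adjusted p = 0.311), with a 95% interval of -0.12 to 1.24, which holds both no change and a rise as large as that of Cxcl2. No difference between the changes of these ligands was tested.

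Cxcl10, the interferon-induced ligand of Cxcr3, had the largest change of the 8 on the log2(value + 1) scale. In Flox saline it was at 0, 18.8 and 16.2, which are 0, 8 and 15 reads, and the 0 allows a value of up to 16.6 in that shallow library (3 reads). In Flox carrageenan it was at 377, 598 and 581 (519 ± 123, SD, n = 3). The LysMCre values were 80.3, 76.4 and 32.5 after saline (63.1 ± 26.5) and 975, 865 and 914 after carrageenan (918 ± 55.2). All 6 carrageenan libraries were above all 6 saline libraries. The log2 change was 6.19 ± 0.80 in Flox (adjusted p = 7.62e-04) and 3.95 ± 0.80 in LysMCre (adjusted p = 0.017). The Flox size depends on how near-zero values are handled: it was 4.79 without Flox saline 1-3, 5.24 with a pseudocount of 5 and 5.17 by edgeR. From pooled reads, 1084 after carrageenan against 23 after saline in Flox, the level was 36.3-fold higher (95% exact interval 24.1 to 57.5, counting error only). In LysMCre, 6360 against 591 reads gave a 13.3-fold higher level (12.2 to 14.4). Leaving out a library kept the Flox call in all 12 fits. In LysMCre the call held in 8 of 12 and was lost without saline 1-4, saline 9-12, carrageenan 5-8 or carrageenan 9-12, with log2 changes of 3.53 to 4.17 over the 12.

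Cxcl9, the neighbour of Cxcl10 and a ligand of the same receptor, was far less abundant. In Flox its reads were 0, 1 and 0 after saline and 9, 4 and 51 after carrageenan, which are normalized counts of 0, 2.35 and 0 and then 23.6, 13.6 and 38.8. In LysMCre there were 14, 16 and 0 reads after saline and 16, 50 and 29 after carrageenan, or 4.76, 4.08 and 0 and then 5.47, 14.8 and 44.8. The carrageenan libraries were the higher ones in both genotypes without overlap, although LysMCre carrageenan 1-4, at 5.47, was barely above the saline libraries. In Flox the 0 of saline 1-3 allows up to 16.6 (3 reads), which is above the 13.6 of carrageenan 4-7, so that separation is not settled at this depth. On the log2(value + 1) scale the Flox change was 4.02 ± 0.91 (adjusted p = 0.0153), and the ratio of pooled reads, 64 against 1, was 49.3 with a 95% exact counting interval of 8.54 to 1977. The Flox call was lost without Flox carrageenan 1-3 (adjusted p = 0.0507) or 8-10 (adjusted p = 0.0548). In LysMCre, limma gave 2.44 ± 0.91 (adjusted p = 0.249), while edgeR (2.48, adjusted p = 0.0299) and DESeq2 (2.74, adjusted p = 0.0146) called it. Pooled LysMCre reads, 95 against 30, gave a ratio of 3.90 (2.56 to 6.09). Averaged over genotypes Cxcl9 rose by 3.23 ± 0.64 (adjusted p = 0.00396), a call held in all 12 fits without a library.

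Cxcl13, the B cell attractant, did not pass in either genotype. It was at 11.1, 32.8 and 71.2 in Flox saline and 70.8, 34.0 and 58.5 in Flox carrageenan, and at 92.9, 118 and 47.3 in LysMCre saline and 168, 146 and 108 in LysMCre carrageenan. The treatments overlapped within each genotype. The averaged log2 change was 0.78 ± 0.38 (adjusted p = 0.227; 95% interval -0.03 to 1.59). It was 0.44 without Flox saline 1-3 (adjusted p = 0.337), and 1.08 without Flox saline 8-10, the 1 omission of 12 that called Cxcl13 (adjusted p = 0.0466).

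Cxcl16, the membrane-anchored ligand of Cxcr6, rose by less than Cxcl10, Cxcl9 or Cxcl3 but with a small spread. In Flox it was at 388, 269.7 and 313 after saline (324 ± 60.1) and 362, 381 and 483 after carrageenan (408 ± 65.0). In LysMCre it was at 238, 244 and 228 after saline (237 ± 8.06) and 536, 480.2 and 449 after carrageenan (489 ± 44.0). The LysMCre groups did not overlap and the Flox groups did. The log2 change was 1.04 ± 0.22 in LysMCre (2.05-fold, adjusted p = 0.0197), where the call held in 7 of the 12 fits without a library and was lost without any LysMCre saline library or LysMCre carrageenan 1-4 or 5-8 (0.97 to 1.10 over the 12). It was 0.34 ± 0.22 in Flox (adjusted p = 0.368). Averaged over genotypes it was 0.69 ± 0.15 (adjusted p = 0.00852), a call held in all 12 fits.

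Pf4, the only member that fell, was the most abundant of the 8 in reads after saline. It stood at 2236, 3841 and 2805 in Flox saline (2961 ± 814) and at 959, 632 and 1025 in Flox carrageenan (872 ± 210.3), with no overlap. In LysMCre it was at 4021, 7726 and 3682 after saline and at 4174, 3197 and 1073 after carrageenan, and the groups overlapped because carrageenan 1-4 lay above 2 of the 3 saline libraries. It fell by 1.76 ± 0.45 in Flox (3.38-fold lower, adjusted p = 0.0306). The LysMCre change did not pass (adjusted p = 0.426), and its size rested on carrageenan 9-12 and saline 5-8: the log2 change of Pf4 was -0.999 ± 0.45 with all libraries, -0.41 ± 0.37 without carrageenan 9-12 (adjusted p = 1) and -0.66 without saline 5-8. Averaged over genotypes it fell by 1.38 ± 0.32 (2.60-fold lower, adjusted p = 0.0109), which held in all 12 fits without a library. The Flox call held in 8 of the 12 and was lost without Flox saline 4-7 or any of the Flox carrageenan libraries, with changes of -1.94 to -1.54.

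In Flox the fall of Pf4 ran beside the fall of the resident macrophage markers. Per 100 normalized counts of the summed 12 markers, Pf4 was at 26.3, 34.6 and 26.7 in Flox saline and 33.3, 24.3 and 32.9 in Flox carrageenan, ranges that overlap. In LysMCre it was at 38.6, 59.9 and 30.4 after saline and 76.2, 64.9 and 33.2 after carrageenan. Among platelet markers Gp1ba, Gp1bb and Tubb1 were at 0 reads in all 12 libraries, Gp9 and Gp6 had 1 read each and Gp5 had 2. Ppbp had 370 reads, Treml1 70, Gng11 56, Itga2b 44 and Clec1b 5. The sum of 12 platelet markers was 7.03 to 49.2 over the 12 libraries, and there were 31 to 1638 Pf4 reads for each Ppbp read. None of the 2 platelet markers that could be tested was called by limma. The part of resident macrophage number in the fall of Pf4 was not tested.

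**Figure D2:**
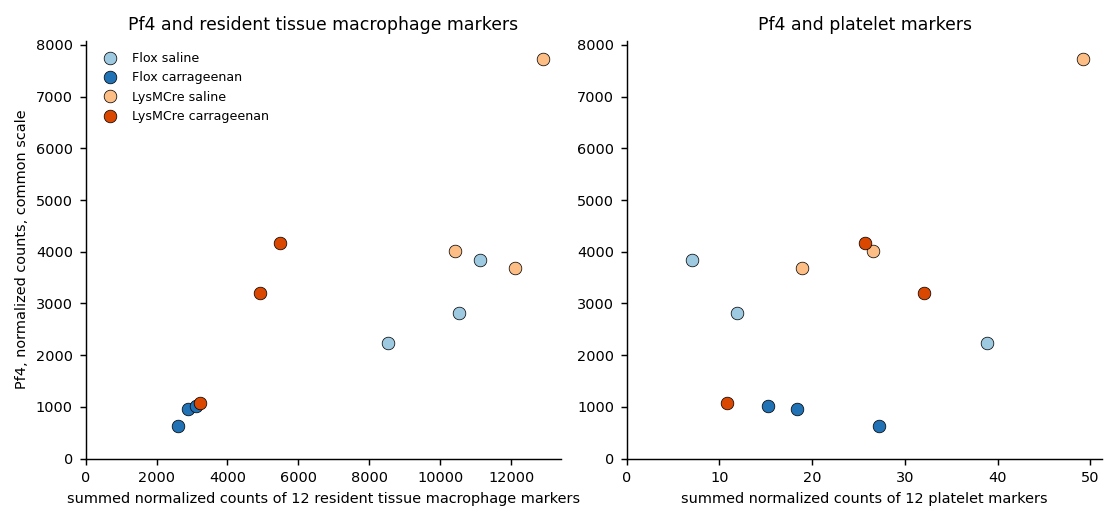
Pf4 against the summed level of 12 resident macrophage markers, both as normalized counts on the common scale, 1 point per library, coloured by group. The Flox carrageenan libraries lie low on both axes (marker sums of 2601 to 3118, Pf4 of 632 to 1025), and LysMCre carrageenan 9-12 (3229 and 1073) lies beside them.

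Some markers of dendritic cells, fibroblasts and neutrophils also moved with carrageenan. The gate keeps some dendritic cells, whereas fibroblasts lack CD45 and CD11b and neutrophils carry Ly6G, so both of the latter should be removed by it. The sum of 9 dendritic markers was 178 to 370 in Flox saline and 571 to 623 in Flox carrageenan, and 147 to 223 and 424 to 460 in LysMCre, with 3 of 6 tested called higher and 0 lower averaged over genotypes. These markers did not move alike. The mean of Ccl22 went from 93.1 to 318 in Flox and from 63.9 to 198 in LysMCre. That of Flt3 went from 14.0 to 12.0 and from 6.11 to 3.55. Xcr1 and Clec9a had 1 and 4 reads in all. Of 7 endothelial and mural markers tested, 2 were called higher. The sum of 9 fibroblast markers was 55.5 to 650 in Flox saline and 928 to 1452 in Flox carrageenan, and 313 to 716 and 850 to 1334 in LysMCre, with 4 of 9 called higher in the averaged comparison. The sum of 10 neutrophil markers was 22.2 to 73.3 and 398 to 721 in Flox, and 18.9 to 32.5 and 141 to 699 in LysMCre, with 5 of 6 tested called higher. Ly6g, the gene of the surface protein used to remove neutrophils, had 4 reads over all libraries, and Camp and Ngp had 0. Among 8 T and NK cell markers and 6 B cell markers, 1 each could be tested, Gzma and Ighm. Averaged over genotypes limma called Gzma higher (log2 change 2.17) and Ighm lower (-1.63). Gzma had 5, 10 and 20 reads in the Flox carrageenan libraries and 0, 4 and 0 in those of LysMCre carrageenan. The part of these cells in the chemokine changes was not tested.

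**Figure D3:**
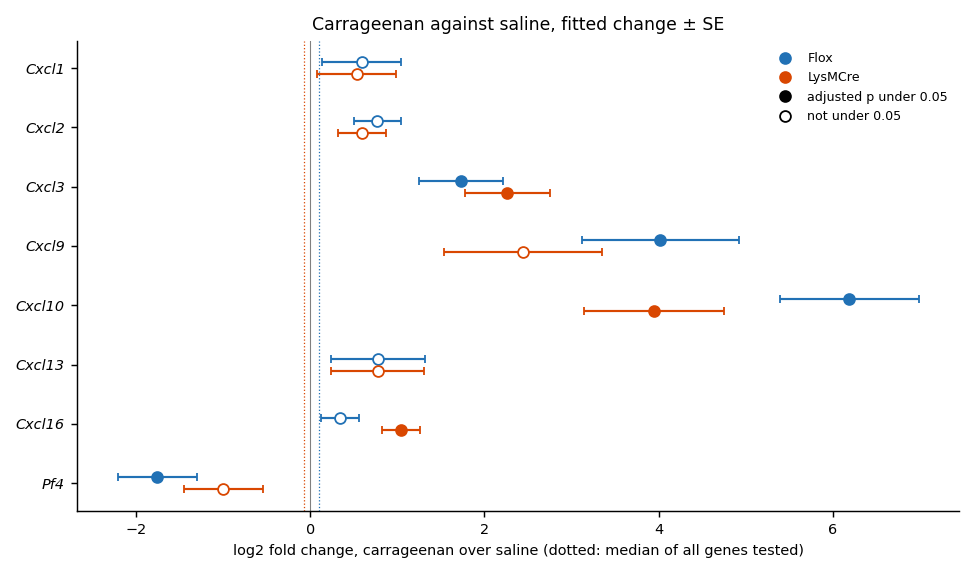
Log2 change of each chemokine from saline to carrageenan in Flox and in LysMCre, from limma on log2(normalized count + 1), with points as estimates and bars as their uncertainty in the fit. Cxcl10 is farthest to the right in both genotypes (6.19 and 3.95) and Pf4 is the single member left of 0 in both.

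The makeup of the chemokine reads differed between treatments. Shares of reads are not levels per molecule length, and with 3′ tags each transcript gives reads from its end. Pf4 took 54.1 to 66.3% of the reads on the 8 members in Flox saline and 14.3 to 23.7% in Flox carrageenan, and 66.8 to 71.8% and 20.7 to 46.2% in LysMCre. Cxcl1, Cxcl2 and Cxcl3 together went from 28.1 to 38.2% to 54.5 to 62.4% in Flox, and from 24.1 to 27.6% to 35.2 to 50.1% in LysMCre. Cxcl10 went from at most 0.324% to 9.31 to 13.5% in Flox, and from 0.590 to 1.35% to 10.8 to 17.6% in LysMCre. None of these ranges overlapped between treatments. The 8 members together took 0.592 to 0.838% of all gene reads in Flox saline and 0.551 to 0.636% in Flox carrageenan, so the total overlapped while its makeup did not.

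**Figure D4:**
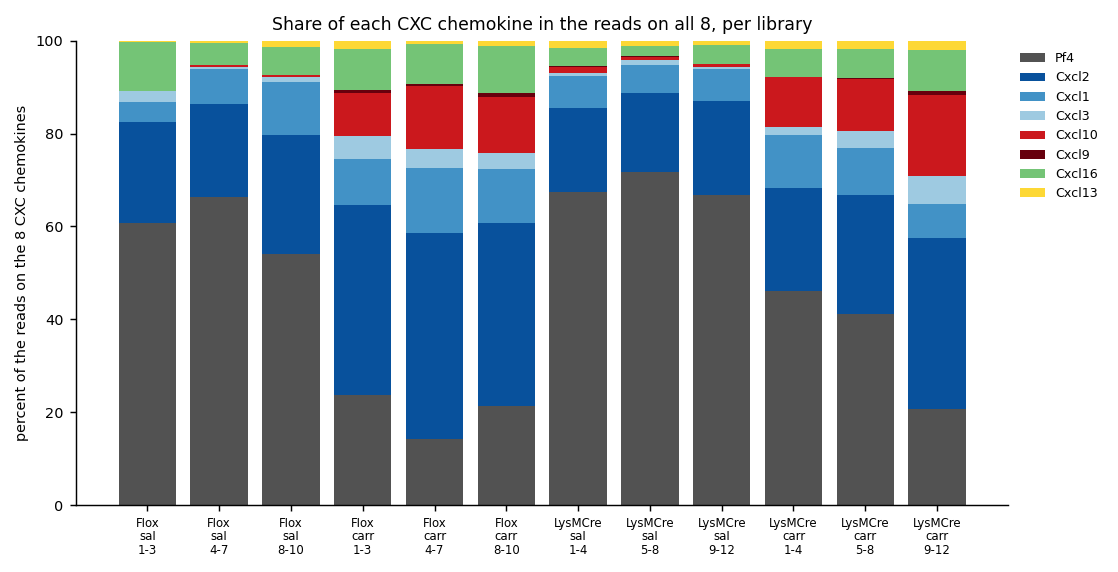
Share of the reads on the 8 chemokines taken by each, in percent, as 1 stacked bar per library, grouped by genotype and treatment. Pf4 is the largest segment of every saline bar (54.1 to 71.8%), and Cxcl10 takes 9.31 to 17.6% of every carrageenan bar.

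Most of the rest of the family and its receptors gave few reads, and the receptor Cxcr4 was the exception, with 2936 reads over the 12 libraries. Among 7 other CXC ligands, 5 could be tested and 2 rose in the averaged comparison: Cxcl5, a Cxcr2 ligand, by 3.09 ± 0.58 (limma adjusted p = 0.00268), and Cxcl11, a Cxcr3 ligand (adjusted p = 6.81e-04). Cxcl11 had 0 reads in all Flox saline libraries and 13, 1 and 11 in Flox carrageenan, and 5, 0 and 0 and then 46, 47 and 12 in LysMCre. Of 8 receptors and decoy receptors, 3 could be tested and 0 passed by limma. Those tested were Cxcr4 and the decoy receptors Ackr1 (143 reads) and Ackr3 (95 reads). Cxcr2, the receptor of Cxcl1 to Cxcl3, had 26 reads in all 12 libraries, Cxcr3 had 20, Cxcr6 had 8, Cxcr5 had 3 and Cxcr1 had 1.

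Some genes that act upstream of the members also rose. Of 12 interferon signalling genes 10 could be tested, and 6 rose and 0 fell in the averaged comparison. They included Irf7, a transcription factor of the type I interferon response (3.96 ± 0.66, adjusted p = 0.00112), Stat2, which carries the interferon signal to the nucleus (1.99 ± 0.31, adjusted p = 7.48e-04), and Irf9, its partner (1.38 ± 0.24, adjusted p = 0.00158). The interferon genes themselves were scarce, with 27 reads of Ifnb1 and 9 of Ifng in all. In Flox 6 of the 10 were called and in LysMCre 2, Stat2 (2.23, adjusted p = 0.0151) and Irf9 (1.45, adjusted p = 0.0344). The difference between genotypes was not called for any of them.

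Changes in this paragraph are averaged over genotypes unless a genotype is named. Of 10 NF-kB subunits and feedback inhibitors, 5 rose and 0 fell, beside 6.77% and 4.83% of all genes. Those that rose included Bcl3, a nuclear cofactor of NF-kB (1.15 ± 0.21, adjusted p = 0.00205), the precursor subunits Nfkb2 (0.94 ± 0.18, adjusted p = 0.00289) and Nfkb1 (1.00 ± 0.22, adjusted p = 0.00854), and the inhibitor Nfkbia (0.78 ± 0.20, adjusted p = 0.0198). In Flox alone 1 of the 10 was called higher (4.42% of all genes) and in LysMCre alone 4 were (2.1%). The difference of the change between genotypes was called for 0 of the 10. Of 9 cytokines and receptors that induce the Cxcr2 ligands, 5 rose and 0 fell, and in Flox alone 4 and in LysMCre alone 3 were called higher. Of the 5 that rose, those with the 4 smallest p were the TNF receptor Tnfrsf1b (1.79 ± 0.22, adjusted p = 1.18e-04), the cytokine Il1b (1.52 ± 0.23, adjusted p = 5.94e-04), the adaptor Myd88 (adjusted p = 0.0012) and the bacterial lipoprotein receptor Tlr2 (1.12 ± 0.22, adjusted p = 0.00412). Of 7 proteins that act on AU-rich chemokine mRNAs, Zc3h12a, an RNase that degrades inflammatory mRNAs, rose by 1.11 ± 0.22 (adjusted p = 0.00396), and Zfp36l1, which promotes mRNA decay, fell by 0.58 (adjusted p = 0.0181). Of 6 proteases that shed or trim chemokines, Mmp8 rose by 3.90 ± 0.63 (adjusted p = 9.35e-04). Mmp8 is also among the neutrophil markers above, and Adam10 and Adam17, which shed Cxcl16, were not called.

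The genotype comparison asks whether the chemokines differ between LysMCre and Flox within a treatment. By limma 0 of the 7 members tested passed after saline and 0 of 8 passed after carrageenan, and among all genes 0 of 9371 (0%) and 0 of 9151 (0%) passed. At an unadjusted p under 0.05 there were 1 and 3 members, and 508 and 897 genes. By edgeR 0 genes passed in either treatment. DESeq2 called 23 genes after saline (0.337% of those with an adjusted p) and 10 after carrageenan (0.487%), and these included 1 and 2 members. An adjusted p under 0.05 stood beside 20 genes after saline (0.277%) and 5 after carrageenan (0.0905%) in the authors' deposited tables, none of them a member.

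Cxcl10, Cxcl13 and Pf4 had the smallest p among the members after carrageenan, and each was higher in all 3 LysMCre libraries than in all 3 Flox libraries. Over all genes tested 8.87% were higher in LysMCre without overlap. Cxcl10, as deposited, was at 365, 576 and 557 in Flox (499 ± 117) and 951, 833 and 881 in LysMCre (888 ± 59.6), a log2 difference of 0.86 ± 0.24 (unadjusted p = 0.00499, adjusted p = 0.497). Cxcl13 was at 68.5, 32.7 and 56.1 in Flox (52.4 ± 18.2) and 164, 140.2 and 104 in LysMCre (136 ± 29.9), a difference of 1.40 ± 0.33 (adjusted p = 0.497). Pf4 was at 928, 609 and 983 in Flox and 4074, 3080 and 1034 in LysMCre, a difference of 1.51 ± 0.45 (adjusted p = 0.497). Pool 9-12 of LysMCre was close to the Flox range for Pf4, at 1034 against 983, and well above it for Cxcl10.

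Without LysMCre carrageenan 9-12 the picture of calls changed. Pf4 then differed by 2.11 ± 0.24 (limma adjusted p = 0.00688) and Cxcl13 by 1.57 (adjusted p = 0.0375), while Cxcl10 stayed at 0.86 (adjusted p = 0.0735). Over all genes 4.71% were called in that fit. DESeq2, with all libraries, gave 1.68 for Pf4 (adjusted p = 0.0411) and 1.34 for Cxcl13 (adjusted p = 0.0449). The authors' deposited table gave 1.39 for Pf4 (adjusted p = 0.0622), 1.18 for Cxcl13 (adjusted p = 0.0792) and 0.77 for Cxcl10 (adjusted p = 0.181). The resident macrophage sum was 2601 to 3118 in Flox and 3229 to 5479 in LysMCre after carrageenan, also without overlap. Per 100 normalized counts of that sum Cxcl13 was at 1.31 to 2.46 in Flox and 2.96 to 3.35 in LysMCre. The part of the resident macrophage share and of the greater LysMCre depth in these differences was not tested.

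After saline, Cxcl10 was at 0, 19.4 and 17.1 in Flox and 83.4, 80.3 and 34.2 in LysMCre as deposited, without overlap, and 10.4% of all genes were higher without overlap. Its difference was 3.12 ± 1.10 (unadjusted p = 0.0206, adjusted p = 0.683), and it was 1.70 without Flox saline 1-3, the library with 0 reads (adjusted p = 0.133). DESeq2 gave 2.18 for Cxcl10 (adjusted p = 0.049), and the log2 difference in the authors' deposited table was 1.58 (adjusted p = 0.0576). Cxcl16 was the member that was lower in every LysMCre library, at 248, 257 and 240.05 against 382, 279 and 329.9, a difference of -0.40 ± 0.23 (adjusted p = 0.683), beside 5.23% of all genes that were lower without overlap. The other members overlapped between the genotypes. Cxcl9 was not tested after saline because too few libraries reached the minimum. Sums of some non-myeloid markers also differed after saline, on the common scale. For 7 keratinocyte markers the sum was 344 to 633 in Flox and 761 to 1558 in LysMCre. For 8 endothelial and mural markers it was 5.55 to 39.9 (1 to 37 reads) and 51.7 to 89.3. Fibroblast sums overlapped, at 55.5 to 650 and 313 to 716. The part of these cells in the saline differences was not tested.

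**Figure D5:**
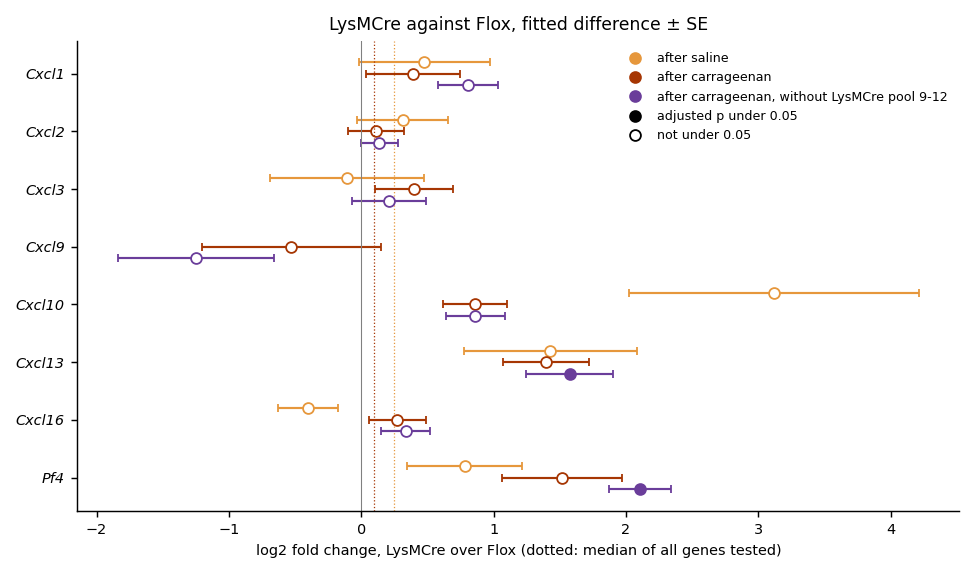
Log2 difference of each chemokine, LysMCre minus Flox, after saline and after carrageenan, from limma on log2(deposited normalized count + 1), with points as estimates and bars as their uncertainty in the fit. Cxcl10, Cxcl13 and Pf4 lie to the right of 0 in both treatments, and with all libraries fitted none of the differences passes after adjustment over all genes.

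Averaged over the treatments, Cxcl10 was higher in LysMCre by 1.99 ± 0.58 (limma adjusted p = 0.198), Cxcl13 by 1.41 ± 0.39 (adjusted p = 0.194) and Pf4 by 1.15 ± 0.33 (adjusted p = 0.196). None passed, beside 1 of 10243 genes (0.00976%). By edgeR Cxcl10 (1.48, adjusted p = 0.0254) and Pf4 (1.25, adjusted p = 0.0419) passed, among 0.635% of all genes. DESeq2 called Cxcl10 (adjusted p = 5.19e-04), Cxcl13 (adjusted p = 0.0287) and Pf4 (adjusted p = 0.0123), among 2.48%. Without LysMCre carrageenan 9-12 limma called Pf4 (1.44, adjusted p = 0.0169), among 2.27%. Without both that library and Flox saline 1-3, a choice made after seeing the data, it called Cxcl10 (1.28, adjusted p = 0.00792), Cxcl13 (1.15, adjusted p = 0.035) and Pf4 (1.34, adjusted p = 0.00596), among 7.69%. The remaining 5 members were not called in any of these fits, and the 95% interval of Cxcl2 after carrageenan was -0.36 to 0.58.

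Whether the carrageenan effect itself differed between genotypes was tested as an interaction. No member and 0 of 10243 genes (0%) passed by limma, and edgeR and DESeq2 also called 0 genes, with 244 genes at an unadjusted p under 0.05. Cxcl10 changed by 2.26 ± 1.15 less on the log2 scale in LysMCre than in Flox (interaction -2.26, unadjusted p = 0.0693, adjusted p = 0.967). That size rested on Flox saline 1-3, the library with 0 Cxcl10 reads: without it the interaction was -0.84 ± 0.46 (adjusted p = 0.999), and with any other library left out it was as low as -3.02. Cxcl16, the member at an unadjusted p under 0.05, changed by 0.67 ± 0.30 more in LysMCre (unadjusted p = 0.043, adjusted p = 0.967). So the calls of Cxcl16 in LysMCre alone and of Pf4 in Flox alone do not show that the genotypes responded differently.

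The genes most like each member across the 12 libraries are given by Pearson's r of log2(value + 1), over tested genes with a mean of at least 20. All libraries share the treatment contrast and differ in depth, so r is a description with no test. Cxcl10 was most like Oasl1 (0.974), Slfn8 (0.972) and Sp100 (0.969). Pf4 was most like Vsig4 (0.964), Serinc3 (0.962) and Tgfbr2 (0.960), and Vsig4 is a complement receptor of resident macrophages. Cxcl2 was most like Ndel1 (0.978), Clic4 (0.969) and Npc2 (0.957), and Cxcl3 like Hilpda (0.960), Nampt (0.956) and Map2k4 (0.951). Cxcl1 was most like Ssr3 (0.952), Cpd (0.950) and Eef1e1 (0.921). For Cxcl9 they were B2m (0.912), Dhx58 (0.910) and Snx18 (0.907), for Cxcl13 Usp34 (0.959), Cgas (0.953) and Tmbim4 (0.940), and for Cxcl16 Dusp2 (0.936), Sbno2 (0.933) and Pgs1 (0.921). Among the members themselves Cxcl2 and Cxcl10 had r = 0.910, Cxcl9 and Cxcl10 0.843, and Cxcl1 and Cxcl2 0.782.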

How the data were processed

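RNA came from 12 pools of sorted paw cells, and 3′ tag libraries with molecular identifiers were sequenced as paired ends, per the labels' protocols. The submitters' processing notes name cutadapt, STAR and GRCm38. Tool versions, the read counter and the gene models were not found in the labels or headers and are not stated. The authors deposited normalized counts (a signal, reads divided by a size factor, with saline and carrageenan scaled separately) and tables of LysMCre against Flox with a log2 fold change, a test statistic (a score), a p-value and an adjusted p-value per gene. In all libraries 100% of the deposited normalized counts were whole reads times 1 factor (tolerance 0.001), so reads were recovered. Of 55522 rows, 121 that are not genes (0.17 to 2.23% of reads) were left out, and 55141 of 55401 gene IDs matched a mouse symbol.

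Reads were rescaled to 1 common scale by medians of ratios over the 6501 genes with a read in all 12 libraries. limma 3.58.1 (R 4.3.3, moderated test with a mean-variance trend) was fitted on log2(value + 1) of all genes with at least 5 in at least 3 libraries, two-sided, with Benjamini-Hochberg adjustment and a threshold of 0.05. For genes with few reads, fold changes on that scale can lie below or above the ratio of pooled reads. In Flox the rise of Cxcl9 was 16.2-fold against a pooled ratio of 49.3, and that of Cxcl10 was 73.0-fold against 36.3. Carrageenan comparisons used the common scale and all 12 libraries, genotype comparisons the deposited scale within 6 libraries, and the averaged genotype and interaction fits all 12 on the deposited scale. edgeR 4.0.16 and DESeq2 1.42.0 were run on the recovered reads as alternatives, beside pseudocounts of 0.5 and 5, no filter, the deposited scale, a replicate block, all 12 libraries for the genotype fits and each library left out in turn. A common scale for the genotype fits and a fit without both Flox saline 1-3 and LysMCre carrageenan 9-12 were added after seeing the data. The fits were tested on simulated data. Depth ran from 111925 to 2987015 reads. Intervals and the limit of a count of 0 (3 reads) cover counting error only. No pair of libraries of the same group agreed within sampling noise, and pairs across groups were not compared.

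The same mouse numbers stand in the titles of saline and carrageenan pools, and the labels do not say what a shared number means. The deviations of same-numbered pools from their group means correlated by 0.200, 0.335 and 0.433 in LysMCre and by 0.009, -0.018 and 0.109 in Flox. Pools with different numbers gave -0.395 to 0.236 in LysMCre and -0.079 to 0.048 in Flox, so the LysMCre ranges overlapped. Named genes were the 8 members, Fabp5, from each pathway list all called genes where 3 or fewer were called and otherwise the 4 with the smallest p (some list genes are not reported here), and the 3 genes most like each member, leaving out Gm and Rik gene models. The members and lists were chosen with earlier results of these data known.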

Additional observations from a re-analysis of the deposited data

How the results depend on the processing

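Of 972 values of single members recomputed under the alternatives, 879 kept their direction and side of the threshold, 42 kept their direction and lost the call, 17 gained it and 34 reversed, none of these 34 in a carrageenan comparison. Without the low-value filter, which raises the number of genes tested, 2 members were called in Flox and 1 in LysMCre. With a library left out, the members called ranged from 1 to 4 in Flox, from 0 to 3 in LysMCre, from 5 to 7 averaged over genotypes, from 0 to 2 for the genotype after carrageenan and from 0 to 1 for the averaged genotype. DESeq2 called 1 member for the genotype after saline, 2 after carrageenan and 3 averaged. edgeR called 2 averaged, and the fit without both doubtful libraries, added after seeing the data, called 3. The replicate block left the members called at 4 in Flox, 3 in LysMCre, 6 averaged and 0 for the genotype, and changed no call of a member.

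Over all genes, the calls in LysMCre (271) were 139 without the filter, 733 by edgeR, 915 by DESeq2 and 84 to 521 with a library left out. In Flox (734) they were 418 without the filter and 423 and 350 without Flox carrageenan 1-3 and 4-7, and averaged (1188) they were 1854 by DESeq2 and 789 without LysMCre saline 1-4. For the averaged genotype (1), a pseudocount of 5 gave 8, no filter 0, the common scale 3, edgeR 65, DESeq2 254, Flox saline 8-10 left out 11, LysMCre carrageenan 9-12 left out 230 and both doubtful libraries left out 769. For the genotype within treatments (0 and 0), DESeq2 gave 23 after saline and 10 after carrageenan, and leaving out LysMCre carrageenan 9-12 gave 420 after carrageenan.

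Small differences turned sign. For the genotype after saline, Cxcl3 was 0.059 by edgeR and 0.022 by DESeq2. In the interaction, Cxcl13 was 0.043 with a pseudocount of 5, 0.40 by edgeR and 0.35 by DESeq2, and Cxcl1 was 0.22 by edgeR and 0.215 by DESeq2. Without both doubtful libraries, Cxcl9 was -0.24 and Cxcl16 0.022 for the averaged genotype, and the interaction was 0.93 for Cxcl1, 0.065 for Cxcl2, -0.002 for Cxcl3 and 0.85 for Cxcl13. With a library left out, the genotype difference ranged from -0.12 to 0.89 for Cxcl1 and from -0.69 to 0.21 for Cxcl3 after saline, from -1.25 to 0.15 for Cxcl9 after carrageenan, and, averaged, from -0.15 to 0.31 for Cxcl3 and from -0.092 to 0.68 for Cxcl9. The interaction ranged from -0.50 to 0.51 for Cxcl1, from -0.38 to 0.047 for Cxcl2 and from -0.66 to 0.67 for Cxcl13. The cause was not tested. With 3 pools a group, and 1 read worth 5.46 deposited normalized counts in Flox saline 1-3, differences in Cxcl9 and in saline Cxcl10 were the least precise.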
